A study of Mus musculus with 12 samples.

Results

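The immediate early transcription factors described here are 10 genes, Fos, Fosb, Jun, Junb, Atf3, Egr1, Egr2, Egr3, Klf2 and Klf6. They were chosen by gene name, and all 10 are among the 11669 genes of the deposited expression table. RNA was sequenced from 12 mouse libraries, 3 in each of 4 groups exposed for 24 h to NP-D@MP, NP-D@M, NP@M or PBS. The labels do not spell out the letters D, M and P, and the series concerns a nanodrug with an engineered cancer cell membrane that targets cyclin-dependent kinases. All 4 groups have the cell line name TAMC, the tissue marrow and the type immune cell in the labels, while the protocol for RNA extraction in the same records names retinas. The libraries with D are those of NP-D@MP and NP-D@M, and those without D are NP@M and PBS. The sources used here do not tell whether libraries of a group came from separate cultures or animals, so p-values measure the spread between libraries, which may be technical.

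Immediate early genes are transcribed within minutes of a stimulus, without new protein synthesis, from promoters that serum response factor and cyclic AMP response element binding proteins already occupy. Their messenger RNAs are short-lived, so their levels follow ongoing transcription closely. Fos and Fosb pair with Jun or Junb to form the activator AP-1, and Atf3 is a stress-induced relative that often represses. Egr1, Egr2 and Egr3 are zinc finger factors that bind GC-rich sites and take part in macrophage differentiation and activation. Klf2 and Klf6 are Krüppel-like zinc finger factors, of which Klf2 restrains and Klf6 promotes inflammatory activation of macrophages.

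Of the 10 genes, 8 have at least 1 promoter window in RefSeq for GRCm38.p6, and Egr2 has 5, for alternative starts. Egr1 and Egr3 have no window and were not searched. Each window begins 250 bases upstream of its start, so sites further upstream were not searched in any gene. Stretches upstream of the start are shown for Fos and Egr2, whose levels were lower with D under every scaling used below, and for Junb. The log2 fold changes of Junb with D lay above the median of all tested genes on both scales given below, while its ranks did not all go that way. Capitals mark the core of the cyclic AMP response element, TGACG or its complement CGTCA, in Fos, Egr2 and Junb. They also mark the TATA box TATAAA in Fos and the CArG box, the serum response factor site, in Egr2. The stretches are chr12:85473640-85473889 on the plus strand, chr10:67537619-67537868 on the plus strand and chr8:84978749-84978998 on the minus strand, each read 5′ to 3′.
Fos: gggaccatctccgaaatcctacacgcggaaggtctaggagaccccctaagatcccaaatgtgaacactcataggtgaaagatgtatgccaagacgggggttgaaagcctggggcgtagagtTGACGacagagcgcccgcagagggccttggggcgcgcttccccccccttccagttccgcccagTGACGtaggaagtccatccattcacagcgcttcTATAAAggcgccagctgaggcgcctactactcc
Egr2: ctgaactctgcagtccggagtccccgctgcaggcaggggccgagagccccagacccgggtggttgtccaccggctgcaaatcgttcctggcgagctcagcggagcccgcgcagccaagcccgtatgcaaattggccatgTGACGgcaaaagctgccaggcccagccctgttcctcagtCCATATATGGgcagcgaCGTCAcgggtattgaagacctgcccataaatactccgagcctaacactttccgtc
Junb: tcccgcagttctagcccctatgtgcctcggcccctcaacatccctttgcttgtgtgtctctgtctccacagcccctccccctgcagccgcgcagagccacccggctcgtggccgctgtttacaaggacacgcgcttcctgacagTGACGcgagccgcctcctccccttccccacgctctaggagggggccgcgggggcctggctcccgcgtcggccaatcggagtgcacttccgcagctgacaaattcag
Searched on both strands over the RefSeq windows, which include the first bases after the start, TGACG was in those of Fos, Fosb, Junb, Egr2, Atf3 and Klf2, and in 20.8% of all 32851 windows. A CArG box was in windows of Egr2 and in 1.63% of all windows. Having 5 windows, Egr2 had more chances to match a motif than the genes with 1. Its overlapping windows share the CArG box shown, another window holds a different one, and the window furthest upstream holds none. The Egr2 stretch shown is thus 1 of 5 and one with a CArG box. In Fos the TATA box starts at position -33, where position 1 is the RefSeq start, and in Junb TATAAA starts at position 1. TATAAA was in 13.6% of all windows. The Egr site GCGNGGGCG was in the windows of Fosb and Klf2 and in 5.55% of all windows. The AP-1 site TGANTCA, in 7.81% of windows, and the full element TGACGTCA, in 1.79%, matched in none of the 8 genes with a window. Jun and Klf6 matched none of the motifs searched.

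The level is in FPKM, fragments scaled to gene length and library size, as the authors deposited it, and 14444950 to 17338264 reads per library could be recovered from these values. The authors' scaling divided by 2.19 to 2.36 times the recovered reads without D and by 0.468 to 0.553 times the recovered reads with D. Levels were therefore also computed from the recovered reads of each library, called read totals below. The change of scale moved the median log2 fold change of all 8615 tested genes in NP-D@M against NP@M to -1.47 with read totals, against 0.16 as deposited. The share of calls that were higher was 12.9% with read totals and 49.6% as deposited. Among libraries without D, a pair stood apart, NP@M replicate 2 and PBS replicate 3, with 9.11% to 9.31% of genes at 0 against 2.65% to 2.96% in the other 4. With D, 8.94% to 13.4% of genes were at 0. Ferritin heavy chain Fth1 took 8.77% to 10.2% of reads with D and 1.62% to 3.45% without D. The lowest shares of Fth1 were those of PBS replicate 3 (1.62%) and NP@M replicate 2 (1.64%).

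Of the labelled cell type's markers, 14 of 16 listed for neutrophils and granulocyte precursors and all 15 for monocytes and macrophages were in the table. Of the 10 retina markers 1 was, at no more than 0.143 FPKM in any library. The neutrophil markers took 0.500% to 0.816% of reads in NP-D@MP, 0.645% to 0.850% in NP-D@M, 0.780% to 0.915% in NP@M and 0.875% to 1.06% in PBS. The monocyte and macrophage markers took 2.65% to 2.76% in NP-D@MP, 2.505% to 3.04% in NP-D@M, 1.18% to 1.32% in NP@M and 1.13% to 1.58% in PBS. Of the monocyte and macrophage markers, Cx3cr1 was at 0 in all 3 NP@M libraries. The part of these markers in the changes described below was not tested, and in bulk RNA fewer cells of a type and less RNA per cell cannot be told apart.

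NP-D@M and NP@M differ by the D in their names. Klf6, Egr2, Klf2, Atf3, Fos and Egr3 were lower with D, whichever scaling was used, and Klf6 and Egr2 by the most. Jun, Junb and Egr1 were higher with D as deposited and at negative log2 fold changes, not called, with read totals. As deposited, 3 of the 9 tested genes were called higher and 6 lower by limma at an adjusted p under 0.05, where 45.2% of all tested genes were called higher and 46.0% lower. With read totals 0 were called higher and 6 lower, where 9.12% of all tested genes were called higher and 61.7% lower. Groups did not overlap for 93.0% of all tested genes as deposited. A call or a gap between these groups is thus usual in this table and is no result about these genes, which differ from each other in the size of the change.

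**Figure D1:**
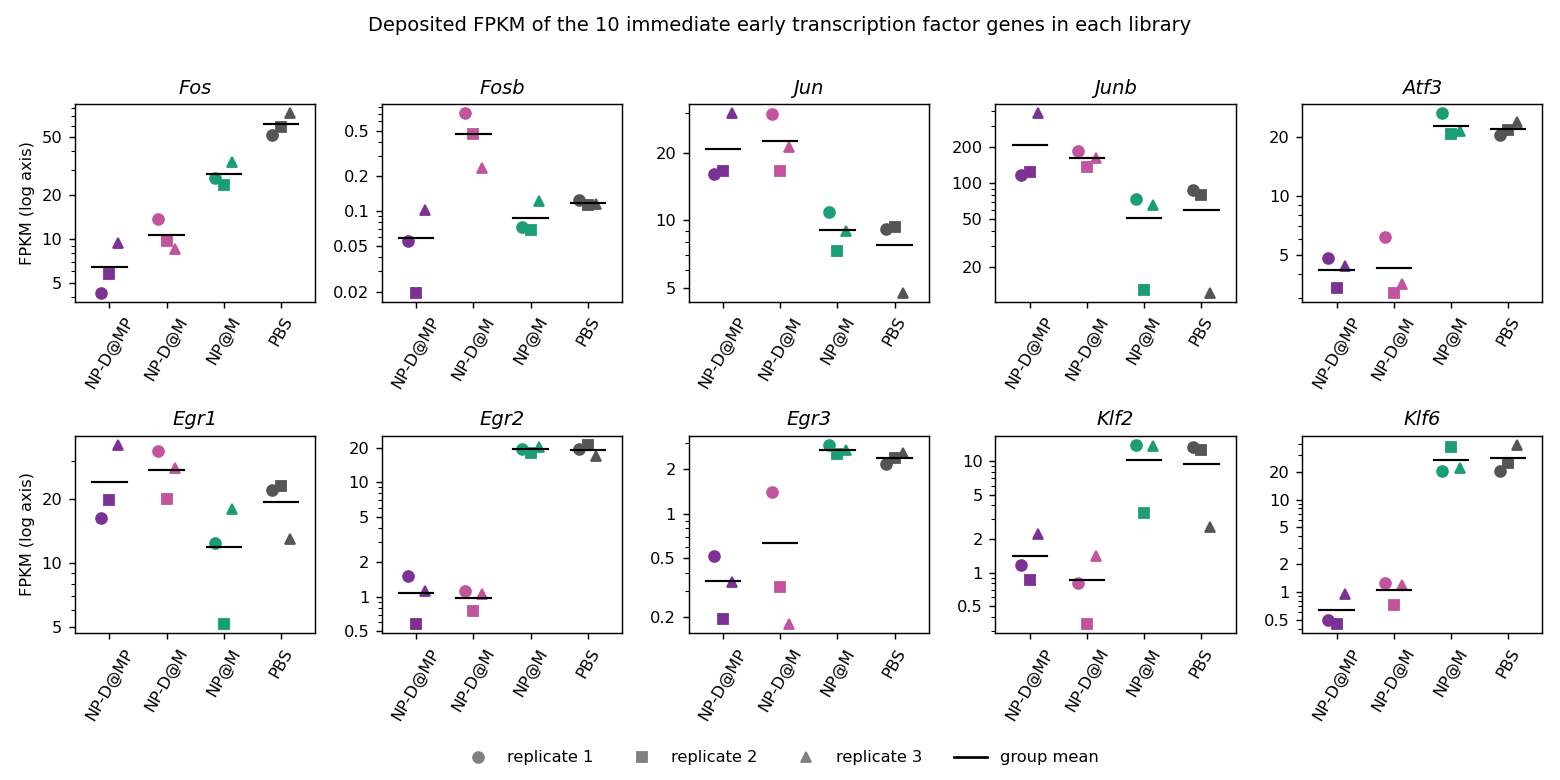
Deposited FPKM of each of the 10 genes (log axis, own range per gene) in the 3 libraries of each group, with the group mean as a line. Egr2 lies between 0.578 and 1.51 FPKM in the 6 libraries with D and between 16.8 and 21.1 in the 6 without, while Jun and Junb lie higher with D on this scale.

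Fos, which cannot pair with itself and binds DNA as the partner of a Jun protein, had 4.28, 5.74 and 9.35 FPKM in NP-D@MP, 13.8, 9.70 and 8.58 in NP-D@M, 26.3, 23.4 and 33.7 in NP@M, and 52.3, 58.8 and 73.0 in PBS. Every library with D was below every library without D, NP@M was below PBS in all libraries, and the groups with D overlapped. Fos fell in NP-D@M against NP@M, with a log2 fold change of -1.31 on the log2(FPKM + 1) scale (SE 0.27, limma adjusted p = 0.000882). With read totals the change was -3.33 (adjusted p = 3.43e-07). Fos also fell in NP-D@MP against PBS, by 3.11 on the log2 scale (limma adjusted p = 1.54e-06), and its mean was 9.50-fold lower at 6.46 ± 2.61 FPKM in NP-D@MP and 61.4 ± 10.6 in PBS (SD, n = 3 each).

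Fosb, a close relative of Fos, was near the limit of detection, with 3, 1 and 5 reads in NP-D@MP, 38, 23 and 13 in NP-D@M, 16, 15 and 29 in NP@M and 27, 27 and 23 in PBS. It did not reach 1 FPKM in any library and was left out of the tests by the filter on low values. In FPKM the NP-D@M libraries, at 0.704, 0.470 and 0.235, were above the NP@M libraries, at 0.0725, 0.0683 and 0.123. With read totals these groups overlapped, so the direction of Fosb rests on the scaling. Without the filter on low values, limma called Fosb higher as deposited (log2 fold change 0.42, adjusted p = 0.00218), as it did 37.2% of all genes in that fit.

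Jun, which forms AP-1 with itself or with Fos, had 16.1, 16.6 and 30.01 FPKM in NP-D@MP, 29.9, 16.6 and 21.3 in NP-D@M, 10.9, 7.32 and 8.93 in NP@M, and 9.12, 9.34 and 4.75 in PBS. The libraries with D were all above those without D. Its log2 fold change in NP-D@M against NP@M was 1.21 as deposited (SE 0.32, limma adjusted p = 0.00391) and turned to -0.81 with read totals (adjusted p = 0.0529). Voom on the recovered reads called it lower, at -0.89 (adjusted p = 0.0405). Without both libraries that stood apart it was 1.08 as deposited (adjusted p = 0.00537) and -0.96 with read totals (adjusted p = 0.0129), calls of opposite sign. Against PBS, NP-D@MP had a log2 fold change of 1.32 as deposited (adjusted p = 0.00228) and -0.74 with read totals (adjusted p = 0.0724). Jun reads numbered 416 to 823 with D and 479 to 1230 without D.

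Junb, a Jun relative that tempers Jun in AP-1, was the most abundant of the 10 genes per length in both groups with D. It had 118, 123 and 381 FPKM in NP-D@MP, 187, 136 and 163 in NP-D@M, 73.8, 12.8 and 65.9 in NP@M, and 88.4, 80.1 and 12.2 in PBS. The lowest values are those of NP@M replicate 2 and PBS replicate 3, the libraries that stood apart. The log2 fold change in NP-D@M against NP@M was 1.98 as deposited (SE 0.81, limma adjusted p = 0.0361) and -0.15 with read totals (adjusted p = 0.885). Without NP@M replicate 2 it was 1.19 (adjusted p = 0.155), and without both libraries that stood apart 1.19 (adjusted p = 0.0242) as deposited but -0.96 with read totals (adjusted p = 0.0633). For NP-D@MP against PBS it was 1.96 (adjusted p = 0.0373) as deposited, -0.24 (adjusted p = 0.812) with read totals and 1.06 (adjusted p = 0.158) as deposited without PBS replicate 3. In that comparison without both libraries, Junb was at 1.06 as deposited (limma adjusted p = 0.0391) and -1.19 with read totals (adjusted p = 0.0272), calls of opposite sign.

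Atf3, which limits cytokine genes after Toll-like receptor signals, had 4.83, 3.36 and 4.37 FPKM in NP-D@MP, 6.12, 3.20 and 3.56 in NP-D@M, 26.3, 20.5 and 21.3 in NP@M, and 20.5, 21.7 and 23.8 in PBS. The libraries with D lay well below the others, and within either set the groups overlapped. Atf3 fell in NP-D@M against NP@M, with means of 4.29 ± 1.60 and 22.7 ± 3.12 FPKM (SD, n = 3 each), a 5.29-fold lower mean a log2 fold change of -2.20 and a limma adjusted p of 3.39e-06. With read totals the log2 fold change was -4.08 and the mean 23.4-fold lower. It likewise fell in NP-D@MP against PBS, with means of 4.19 ± 0.751 and 22.0 ± 1.67 FPKM (log2 fold change -2.16, adjusted p = 3.94e-06), and stood at -4.09 with read totals. Neither PBS replicate 3 nor NP@M replicate 2 was far from its group mates.

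Egr1, the best known of its family and often the first to be induced, had 16.2, 19.7 and 35.6 FPKM in NP-D@MP, 33.4, 19.96 and 27.8 in NP-D@M, 12.3, 5.18 and 18.0 in NP@M, and 21.8, 22.8 and 12.9 in PBS. NP-D@M lay above NP@M without overlap, while NP-D@MP and PBS overlapped. The log2 fold change in NP-D@M against NP@M was 1.24 as deposited (SE 0.42, limma adjusted p = 0.0155) and -0.79 with read totals (adjusted p = 0.140). It was 0.79 (adjusted p = 0.0638) without NP@M replicate 2 and 1.08 (adjusted p = 0.0563) without NP-D@M replicate 1. When both libraries that stood apart were left out, it was called higher as deposited (0.79, adjusted p = 0.0382) and lower with read totals (-1.28, adjusted p = 0.00443). Egr1 in NP-D@MP against PBS stood at 0.26 as deposited (adjusted p = 0.552) and was called lower, at -1.87, with read totals (adjusted p = 0.00300).

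Egr2, which drives macrophage activation states and myelination elsewhere, had 1.51, 0.578 and 1.12 FPKM in NP-D@MP, 1.12, 0.751 and 1.06 in NP-D@M, 19.6, 18.1 and 20.1 in NP@M, and 19.3, 21.1 and 16.8 in PBS. All libraries without D lay in a narrow band, those that stood apart included, and all libraries with D lay far below it. Egr2 fell in NP-D@M against NP@M, with a 19.7-fold lower mean and a log2 fold change of -3.36 (SE 0.19, limma adjusted p = 9.66e-08). It also fell in NP-D@MP against PBS, by 3.30 on the log2 scale (adjusted p = 1.02e-07). With read totals these changes were -4.93 and -4.88. Reads numbered 16 to 45 per library with D and 1810 to 2733 without D.

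Egr3, itself a target of Egr1 in other cell types, had the lowest group means of the tested genes without D. It had 0.519, 0.195 and 0.346 FPKM in NP-D@MP, 1.42, 0.318 and 0.179 in NP-D@M, 2.93, 2.55 and 2.70 in NP@M, and 2.19, 2.40 and 2.57 in PBS. NP-D@M replicate 1 was well above its group mates and still below every library without D. Egr3 fell in NP-D@M against NP@M (log2 fold change -1.26, SE 0.23, limma adjusted p = 0.000393) and in NP-D@MP against PBS (-1.33, adjusted p = 0.000263). With read totals these changes were -2.49 and -2.46. With D it rested on 7 to 54 reads per library, against 332 to 457 without D.

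Klf2, a brake on inflammatory gene expression in monocytes, had 1.18, 0.864 and 2.20 FPKM in NP-D@MP, 0.814, 0.345 and 1.40 in NP-D@M, 14.0, 3.43 and 13.5 in NP@M, and 13.4, 12.6 and 2.59 in PBS. NP@M replicate 2 and PBS replicate 3 were again far below their group mates, yet above all libraries with D. Klf2 fell in NP-D@M against NP@M (log2 fold change -2.45, SE 0.58, limma adjusted p = 0.00198) and in NP-D@MP against PBS (-1.92, adjusted p = 0.00845). With read totals these changes were -3.90 and -3.49. Without both libraries that stood apart the change against NP@M was -3.03 as deposited.

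Klf6, the zinc finger factor that favours inflammatory genes in macrophages, had 0.495, 0.447 and 0.955 FPKM in NP-D@MP, 1.24, 0.726 and 1.18 in NP-D@M, 20.6, 36.9 and 22.0 in NP@M, and 20.4, 24.7 and 39.1 in PBS. Here NP@M replicate 2 and PBS replicate 3 were the highest libraries, and every library with D was below every library without D. Klf6 fell in NP-D@M against NP@M, with means of 1.05 ± 0.281 and 26.5 ± 9.07 FPKM (SD, n = 3 each), a log2 fold change of -3.71 (SE 0.28) and a limma adjusted p of 5.52e-07. It also fell in NP-D@MP against PBS, with means of 0.632 ± 0.281 and 28.05 ± 9.77 FPKM and a log2 fold change of -4.12 (adjusted p = 2.78e-07). With read totals the changes were -5.30 and -5.60.

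**Figure D2:**
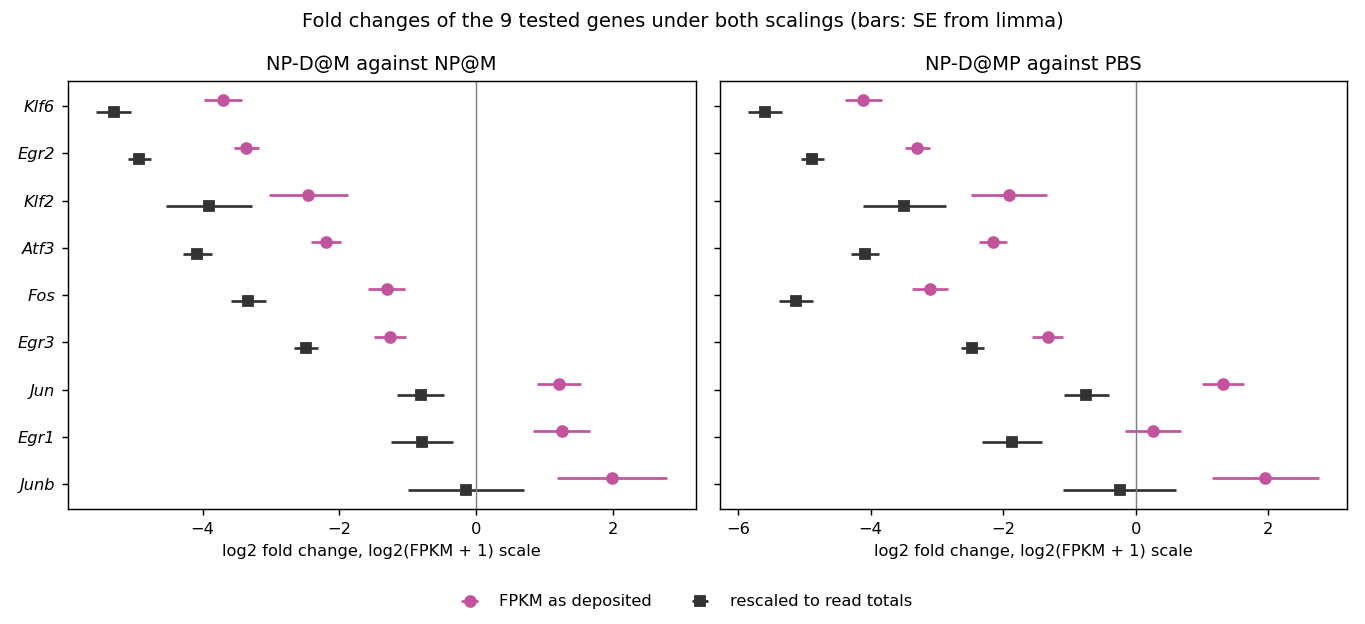
Log2 fold change of the 9 tested genes on the log2(FPKM + 1) scale, with its SE from limma, in NP-D@M against NP@M and in NP-D@MP against PBS. Circles are FPKM as deposited and squares are read totals: Klf6, Egr2, Klf2, Atf3, Fos and Egr3 lie below 0 on both scales, while Jun and Junb lie above 0 as deposited and below 0 with read totals.

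NP-D@MP against PBS sets the group with both D and P in its name against PBS. Of the 9 tested genes 2 were called higher (Jun and Junb) and 6 lower as deposited, where 45.7% of all tested genes were called higher and 45.8% lower. With read totals 0 were called higher and 7 lower, where 9.01% of all genes were called higher and 62.4% lower.

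Relative to the median of all tested genes, the order of the 9 genes was nearly the same under both scalings. In NP-D@M against NP@M, Klf6 lay 3.86 below the median on the log2 scale as deposited and 3.83 below it with read totals. A lower log2 fold change than that of Klf6 was found in 0.418% of tested genes as deposited and in 0.453% with read totals. For Egr2 these shares were 0.940% and 0.905%, for Klf2 5.12% and 5.15%, for Atf3 7.77% and 3.92%, for Fos 26.1% and 11.6%, and for Egr3 27.2% and 29.6%. This order is on the log2(FPKM + 1) scale, which shrinks changes of low genes such as Egr3. By group means, Egr3 was 4.27-fold lower and Fos 2.60-fold lower as deposited, and 18.5-fold and 11.6-fold lower with read totals. Klf2 was 53.4-fold and Atf3 23.4-fold lower by means with read totals. Jun, Egr1 and Junb lay 1.05, 1.09 and 1.82 above the median as deposited, and 0.65, 0.68 and 1.31 above it with read totals. Against NP@M, then, these 3 genes stood above most of the table on both scales, although the sign of their own change was not the same on both. For NP-D@MP against PBS, Fos moved further down this order, with a lower value in 1.44% of tested genes as deposited and 0.638% with read totals. In that comparison Egr1 lay near the median, 0.13 above it as deposited and 0.38 below it with read totals. Jun and Junb lay 1.18 and 1.83 above it as deposited, and 0.74 and 1.24 above it with read totals.

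Ratios between genes of a family within a library do not depend on the factor between libraries, and 6 were formed, with pairs chosen after the values were seen. Over 24 comparisons of ratios, the exact permutation test of 3 libraries against 3, 2-sided, cannot give a p below 0.1, and the smallest adjusted p was 0.2. The log2 ratio of Fos over Jun was -1.71 ± 0.190 in NP-D@MP, -1.07 ± 0.269 in NP-D@M, 1.62 ± 0.327 in NP@M and 3.04 ± 0.786 in PBS (SD, n = 3 each). Jun thus exceeded Fos in all libraries with D and Fos exceeded Jun in all without D, and each group was separate from the next in this order (exact p = 0.1 for each). Atf3 over Jun was -2.42 ± 0.1504 in NP-D@M and 1.34 ± 0.132 in NP@M, without overlap (exact p = 0.1). Junb over Jun, at 2.87 ± 0.202 in NP-D@M and 2.15 ± 1.16 in NP@M, overlapped (exact p = 0.4).

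Within the Egr family the log2 ratio of Egr2 over Egr1 was -4.78 ± 0.0989 in NP-D@M and 0.878 ± 0.839 in NP@M (SD, n = 3 each, exact p = 0.1). Without D the ratio ran from -0.18 to 1.80 over the libraries of NP@M and PBS, while Egr1 was far above Egr2 in all libraries with D. The ratio was, in NP-D@MP and PBS, -4.50 ± 0.938 and 0.0307 ± 0.309. Egr3 over Egr1 was -5.94 ± 1.36 in NP-D@M and -1.94 ± 0.866 in NP@M, again without overlap (exact p = 0.1). Klf6 over Klf2 was -1.13 ± 0.162 in NP-D@MP, 0.476 ± 0.670 in NP-D@M, 1.56 ± 1.62 in NP@M and 1.83 ± 1.81 in PBS. Its widest values, 3.43 in NP@M replicate 2 and 3.92 in PBS replicate 3, came from the libraries that stood apart, and NP-D@M overlapped NP@M (exact p = 0.5). NP-D@MP lay below NP-D@M in this ratio without overlap (exact p = 0.1). With D the ratio rests on 5 to 32 Klf2 reads and 16 to 47 Klf6 reads per library, and neither gene was called between these groups.

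**Figure D3:**
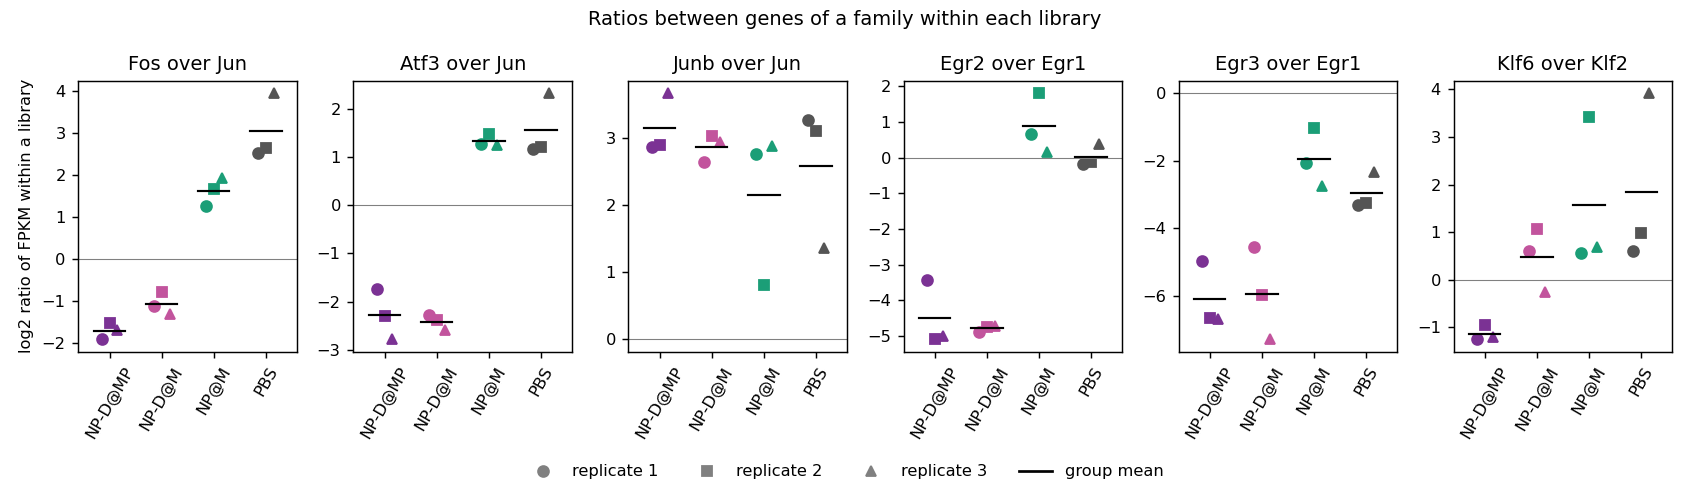
Log2 ratio of FPKM between 2 genes of a family within each library, for 6 pairs and 4 groups, with group means as lines and 0 marking equal levels. Fos over Jun is below 0 in all 6 libraries with D and above 0 in all 6 without, while Junb over Jun overlaps between groups.

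Ranks within a library are also free of that factor. Egr2 stood at percentile 42.7 to 56.9 of the 11669 genes in libraries with D, against 89.6 to 91.1 without D, and Klf6 at 39.05 to 53.6, against 90.2 to 96.0. Fos stood at 69.2 to 80.4 with D and 92.9 to 97.9 without D, and Atf3 at 65.6 to 72.4 and 90.2 to 93.1. The ranks of Klf2, Egr3 and Fosb overlapped between libraries with and without D. Klf2 stood at 35.5 to 60.5 with D and 55.05 to 86.6 without D, the lowest of these being PBS replicate 3. Egr3 stood at 26.1 to 55.4 and 51.6 to 57.7, with NP-D@M replicate 1 the highest with D. Fosb stood at 12.1 to 45.9 with D and 8.58 to 14.0 without D. Junb kept a high rank, 93.9 to 97.07 with D and 86.5 to 97.7 without D. The low ranks of Junb without D were those of PBS replicate 3 (86.5) and NP@M replicate 2 (87.2). Its other libraries without D stood at 97.12 or above, higher than every library with D. Jun ranked at 81.2 to 86.6 with D and 69.3 to 83.5 without D. Egr1 ranked at 82.1 to 87.4 with D, within its range of 70.7 to 91.9 without D, where the lowest value was that of NP@M replicate 2.

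**Figure D4:**
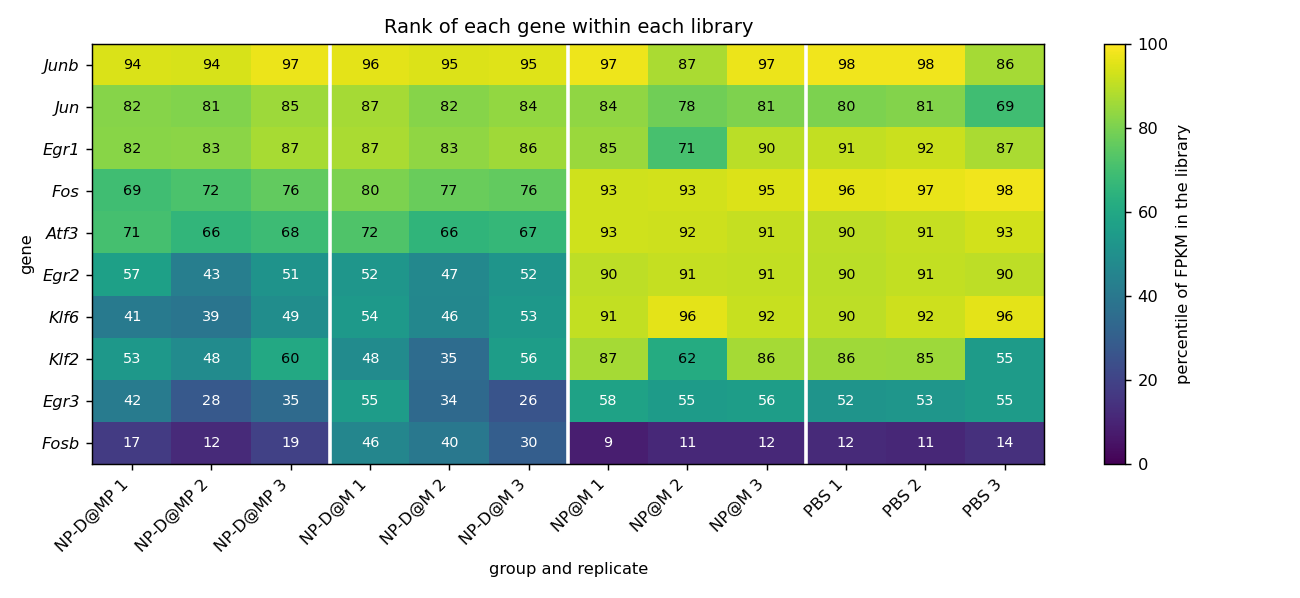
Percentile of each gene among the 11669 genes of the table (0 lowest, 100 highest) in each of the 12 libraries, ordered by group. Egr2 and Klf6 lie at percentiles of 39.05 to 56.9 in the 6 libraries with D and at 89.6 or above in the 6 without, while Junb does not fall below 93.9 with D.

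NP-D@MP against NP-D@M asks what differs with P in the name. By limma, 0 of the 9 genes were called, as were 0.0% of all tested genes. At an unadjusted p under 0.05 there were 428 of 8615 genes, Fos among them. That is about the number this threshold passes with no difference between groups. Voom on the recovered reads called 1 gene of all and 0 of the 9. Fos averaged 6.46 ± 2.61 FPKM in NP-D@MP and 10.7 ± 2.76 in NP-D@M (SD, n = 3 each), a log2 fold change of -0.68 with an adjusted p of 0.853. The groups overlapped as deposited and did not overlap with read totals, where 9.39% of all tested genes were lower without overlap. Fosb reads, at 3, 1 and 5 in NP-D@MP and 38, 23 and 13 in NP-D@M, also did not overlap, and without the filter on low values Fosb was at -0.46 as deposited, not called (limma adjusted p = 0.136). For the other 8 tested genes the log2 fold changes lay between -0.33 (Klf6) and 0.38 (Klf2).

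NP@M against PBS sets the group with neither D nor P in its name against PBS. By limma 0 of the 9 genes were called, against 0.0116% of all tested genes, which is 1 gene, Gm24366. At an unadjusted p under 0.05 there were 27 genes of all, and Fos was the 1 among the 9, while voom called 0. Fos was 27.8 ± 5.32 FPKM in NP@M and 61.4 ± 10.6 in PBS (SD, n = 3 each), a log2 fold change of -1.12 (SE 0.27) with an adjusted p of 1. The groups did not overlap, lower in NP@M, which held for 1.14% of all tested genes in that direction. With read totals the log2 fold change of Fos was -1.11 and the groups did not overlap either. The other 8 tested genes overlapped between these groups as deposited, and their log2 fold changes lay between -0.76 (Egr1) and 0.24 (Jun). The 4 comparisons share groups, PBS and NP-D@M among them, so their values are not independent of each other.

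Other genes of these pathways were taken from lists chosen with earlier results of these data known. A gene that reached 1 FPKM only in libraries without D passed the filter and could hardly be called higher with D. This holds for every list and family below, so their counts of lower calls are in part set by the filter. In NP-D@M against NP@M, 11 of 14 tested relatives in the AP-1 family were called lower and 0 higher as deposited, and 13 lower and 0 higher with read totals. These shares compare with 46.0% of all tested genes called lower as deposited and 61.7% with read totals. Their median log2 fold change was -1.39 as deposited and -3.11 with read totals, beside 0.16 and -1.47 for all tested genes. Fosl2, another Fos relative, was 0.364 ± 0.0546 FPKM in NP-D@M and 17.5 ± 1.56 in NP@M (SD, n = 3 each), a log2 fold change of -3.75 (limma adjusted p = 5.29e-08). Atf4, the factor of the integrated stress response, fell by 3.34 on the log2 scale (adjusted p = 0.000166). The small Maf factors Mafg and Mafk had log2 fold changes of -1.89 and -2.30, and Fosl1, a Fos relative, of -1.13.

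Of 28 tested other immediate early genes, 21 were called lower and 5 higher in NP-D@M against NP@M as deposited, and 23 lower and 1 higher with read totals. Of all tested genes, 46.0% were called lower and 45.2% higher as deposited, and 61.7% and 9.12% with read totals. The 5 with the smallest adjusted p were all lower. Dusp6, a phosphatase that switches off ERK kinases, was 0.172 ± 0.105 FPKM in NP-D@M and 49.96 ± 9.08 in NP@M (SD, n = 3 each), a log2 fold change of -5.43 (limma adjusted p = 4.88e-08). The log2 fold changes of Bhlhe40, Ets2, Btg1 and Trib1 were -4.30, -4.44, -3.45 and -2.59. The median of the list was -1.83 as deposited and -3.58 with read totals.

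Among 18 tested genes of serum response factor and the MAP kinases that feed it, 12 were called lower and 4 higher as deposited, and 17 lower and 0 higher with read totals, beside 46.0% and 61.7% of all tested genes called lower. The median of the list was -1.31 as deposited and -2.85 with read totals. Log2 fold changes were -3.21 and -2.33 for the kinases Mapk14 and Rps6ka1, -2.21 and -2.44 for the upstream kinases Map2k3 and Map2k4, and -2.51 for Mkl1, a coactivator of serum response factor. Nab2, a corepressor that Egr proteins recruit and induce, was 0.172 ± 0.261 FPKM in NP-D@M and 3.9998 ± 2.83 in NP@M (SD, n = 3 each), a log2 fold change of -1.88 (limma adjusted p = 0.00413).

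Of 10 Krüppel-like factors beyond Klf2 and Klf6 in the table, 8 passed the filter on low values and were tested. All 8 were called lower in NP-D@M against NP@M as deposited and with read totals, with medians of -1.75 and -2.88. Genes at 0 in NP-D@M, such as Klf4 and Klf11, passed the filter only through other groups and could not come out higher. The share of all tested genes called lower was 46.0% as deposited and 61.7% with read totals. Klf13 was 0.158 ± 0.0974 FPKM in NP-D@M and 18.9 ± 1.64 in NP@M, a log2 fold change of -4.10 (limma adjusted p = 5.29e-08). Klf10, Klf9 and Klf3 had log2 fold changes of -2.43, -1.76 and -1.78. Klf11 and Klf4 were at 0 in all 3 NP-D@M libraries, against 2.05 ± 0.845 and 2.16 ± 1.21 FPKM in NP@M, at least 25.1-fold and 18.5-fold lower with a floor of 3 reads per library. With both at that floor the median of the list was again -1.75.

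The same lists in NP-D@MP against PBS counted 11 lower and 2 higher of 14 AP-1 relatives, 23 lower and 5 higher of 28 other immediate early genes, 12 lower and 5 higher of 18 genes of the serum response factor list, and 8 lower of 8 Krüppel-like factors, as deposited, where 45.8% of all tested genes were called lower and 45.7% higher. With read totals the counts were 12 lower and 0 higher, 23 lower and 1 higher, 16 lower and 1 higher, and 8 lower, where 62.4% of all tested genes were called lower and 9.01% higher. Of these lists 0 genes were called in NP-D@MP against NP-D@M, and 0 in NP@M against PBS.

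**Figure D5:**
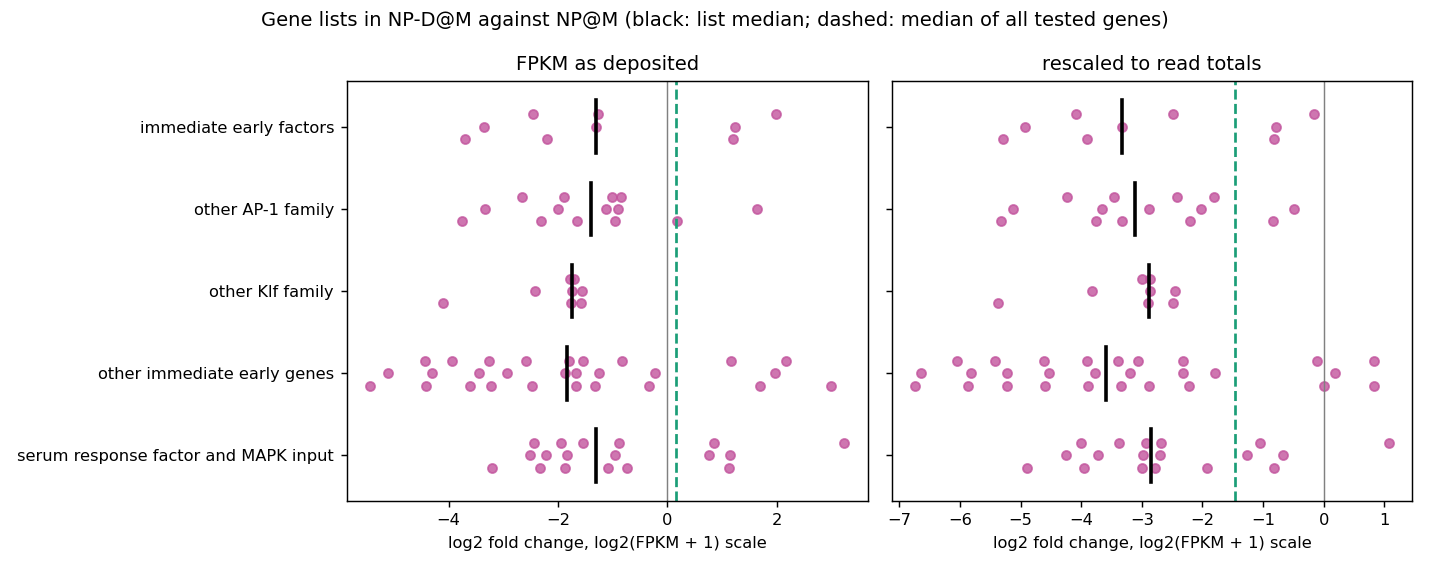
Log2 fold change in NP-D@M against NP@M of each tested gene of 5 lists (points), with the list median as a black bar and the median of all tested genes as a dashed line, as deposited and with read totals. All list medians lie below the dashed line on both scales, from -1.83 to -1.31 as deposited against 0.16 for all tested genes.

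The genes most like Fos, Egr2 and Klf6 over the 12 libraries were sought among 7840 tested genes with a proper symbol, by the root mean square difference of centred log2(FPKM + 1), a description with no test. For Egr2 they were C5ar1, the receptor for complement C5a (0.146), Tifab (0.161) and Ralgds (0.161). For Klf6 they were Pik3ap1 (0.237), Mxd1 (0.240) and Tnfaip2 (0.250). For Fos they were Klhl36 (0.432), Tfg (0.433) and Stk24 (0.450). Of the 9 tested genes themselves, Egr2 and Klf6 were nearest to each other, at 0.479, and Atf3 was nearest to Fos, at 0.551.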

How the data were processed

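Total RNA was turned into sequencing libraries with a TruSeq kit, per the labels' protocols. The deposited table gives FPKM per gene, a unit its header does not name and which was read from the values, as the authors scaled them. Bowtie 0.12.2 and mm8 appear in the submitters' processing notes, with no role given. Coordinates equalled those of GENCODE M21 on GRCm38 for 11213 of 11669 genes, so positions are on that build. The choice of genes in the table and the method behind the factor between libraries are not given in the sources used here.

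Multiplied by gene length and divided by a constant of its library, 100% of values were whole within 0.05, which gave the recovered reads. Read totals are FPKM computed from these reads and their sum. Genes with at least 1 FPKM in at least 3 libraries were tested (8615). Log2(FPKM + 1) was fitted with limma 3.58.1 (R 4.3.3; trend and robust options) as 4 group means over 12 libraries. Tests were 2-sided, with Benjamini-Hochberg adjustment over all tested genes and calls at an adjusted p under 0.05. The pseudocount of 1 understates changes of low genes. The procedure was run on simulated data with no factor between libraries with and without D, so that run does not bear on the scaling. Ratios were compared by exact permutation tests (scipy 1.17.1). A floor of 3 reads covers counting error alone, because reads that carry no molecular identifier may be copies of the same molecule. Promoter sequences are from RefSeq for GRCm38.p6.

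The genes and lists were chosen with earlier results of these data known. All 10 genes are named, as are up to 5 genes per list with the smallest adjusted p in NP-D@M against NP@M, all tested Egr corepressors, and the 3 genes most like Fos, Egr2 and Klf6. Gm24366 and Klf4 were named after their values were seen. Marker lists served to check the labelled cell type. Alternatives were quantile normalization, read totals, equal medians, other filters and pseudocount, limma without its options, only the 6 libraries compared, voom, and leaving out libraries. Leaving out PBS replicate 3 and NP@M replicate 2 with read totals was added after seeing the data.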

Additional observations from a re-analysis of the deposited data

How the results depend on the processing

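The lower levels of Fos, Egr2, Egr3, Atf3, Klf2 and Klf6 in NP-D@M against NP@M kept their direction and call under every alternative run, except that the filter of 5 FPKM left Egr3 untested in every comparison. They did so in NP-D@MP against PBS too, except that Klf2 missed the call with quantile normalization (-1.84, adjusted p = 0.0572). The higher levels of Jun, Junb and Egr1 as deposited in NP-D@M against NP@M held with equal medians (1.70, 2.501 and 1.74) and did not hold under the other scalings. With quantile normalization Jun (0.41, adjusted p = 0.292) and Egr1 (0.36, adjusted p = 0.525) stayed positive and were not called. In NP-D@M against NP@M, Jun turned to -0.81 with read totals, -0.89 with voom and -0.96 with read totals without both libraries that stood apart, Egr1 to -0.79, -0.85 and -1.28, and Junb to -0.15, -0.17 and -0.96. Of these, voom called Jun (adjusted p = 0.0405), and read totals without both libraries called Jun and Egr1. Junb was -0.0293 with quantile normalization. For NP-D@MP against PBS, Jun turned to -0.74, -0.83 and -1.08, Junb to -0.24, -0.26 and -1.19, and Egr1 to -1.87, -1.99 and -2.16, with Junb at -0.16 and Egr1 at -0.95 under quantile normalization. In that comparison read totals and voom called Egr1 lower (limma adjusted p = 0.00300 and 0.00210), and neither called Jun or Junb. Read totals without both libraries called Jun, Junb and Egr1 lower (limma adjusted p = 0.00686, 0.0272 and 0.000133). These alternatives differ in scaling by construction, and the cause was not tested further. Leaving out 1 library at a time gave 0.79 to 1.60 for Egr1, 1.19 to 2.41 for Junb and 0.99 to 1.40 for Jun in NP-D@M against NP@M, and -0.0583 to 0.49, 1.06 to 2.44 and 1.04 to 1.47 in NP-D@MP against PBS. Junb lost its call in NP-D@M against NP@M without NP@M replicate 2 or any 1 of the NP-D@M libraries. It lost its call in NP-D@MP against PBS without PBS replicate 3, without NP-D@MP replicate 3 and in the fit of only the 6 libraries compared. Quantile normalization called 5 of the 9 genes in NP-D@MP against PBS, against 8.

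Signs turned for some values close to 0 that were not called. In NP-D@MP against NP-D@M, Egr2 was -0.0457 with voom, and Atf3 was -0.00602, -0.0724, -0.0220, -0.0763 and -0.0724 with quantile normalization, read totals, equal medians, voom and read totals without both libraries. Leaving out 1 library there gave -0.41 to 0.0859 for Jun, -0.42 to 0.43 for Junb, -0.54 to 0.0017 for Egr1, -0.11 to 0.23 for Egr2, -0.41 to 0.11 for Egr3 and -0.15 to 0.24 for Atf3. In NP@M against PBS, Egr2 was -0.0202 without both libraries as deposited and -0.0209 with read totals. Leaving out 1 library gave -0.0403 to 0.38 for Jun, -1.05 to 0.63 for Junb, -0.0638 to 0.0903 for Egr2, -0.0664 to 0.10 for Atf3, -0.50 to 0.73 for Klf2 and -0.33 to 0.18 for Klf6.

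Over all genes, a filter of 5 FPKM left fewer genes to test and called 4422 of them in NP-D@M against NP@M, against 7855, and 4447 in NP-D@MP against PBS, against 7882. Calls in NP-D@MP against NP-D@M numbered 0 as deposited, 6 with equal medians, 8 without a filter, 2 with a pseudocount of 0.1, 1 with voom, 17 without both libraries, 1 with read totals without both, and 0 to 4 leaving out 1 library. In NP@M against PBS the 1 call became 0 with quantile normalization, equal medians, either other filter, limma without its options, the pseudocount of 0.1, the 6 libraries compared alone, voom and without both libraries, and ranged from 0 to 1 leaving out 1 library. No paired analysis was possible because the labels give every library a number of its own and no number is shared between groups. Low read numbers with D, 5 to 32 for Klf2, 7 to 54 for Egr3 and 16 to 47 for Egr2 and Klf6, limit how finely levels within the D groups can be told apart.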

Other observations

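AP-1 proteins belong to the basic leucine zipper (bZIP) factors, and the deposited table marks this family. Of its 34 tested genes, 27 were lower and 4 higher in NP-D@M against NP@M as deposited, and 29 lower and 0 higher with read totals. Of all tested genes, 46.0% were called lower and 45.2% higher as deposited, and 61.7% and 9.12% with read totals. Among them, 16 belong to none of the lists above, with 14 lower and 2 higher as deposited and 14 lower and 0 higher with read totals. Their median log2 fold change was -1.54 as deposited and -2.83 with read totals, beside 0.16 and -1.47 for all tested genes.

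Xbp1, a factor of the unfolded protein response and of secretory cells, was 3.88 ± 0.421 FPKM in NP-D@M and 105 ± 8.46 in NP@M (SD, n = 3 each), a log2 fold change of -4.45 (limma adjusted p = 4.88e-08). Nfil3, a repressor with roles in lymphoid and myeloid cells, was 1.78 ± 0.190 FPKM in NP-D@M and 36.5 ± 6.28 in NP@M, a log2 fold change of -3.74 (adjusted p = 1.52e-07). Nfe2, Bach1 and Nfe2l2, which act with small Maf proteins on haem and antioxidant genes, had log2 fold changes of -3.81, -2.98 and -1.93. Atf6b, a membrane-bound relative of Atf6, was higher as deposited, at 58.3 ± 6.14 FPKM in NP-D@M and 19.7 ± 8.81 in NP@M (log2 fold change 1.63, adjusted p = 0.00679), and stood at -0.47 with read totals (adjusted p = 0.435). Creb3l4 was the other gene called higher as deposited, at 1.24 (adjusted p = 0.00594), and stood at 0.03 with read totals (adjusted p = 0.929). These genes were chosen after their values were seen.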
